A study of Drosophila melanogaster with 80 samples.

Results

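The genes described here license DNA for replication and drive mitosis: Orc1, Orc2, Mcm2, Mcm3, Mcm5, Mcm6, Mcm7, dup, aurB and CycB3. Members were chosen by gene symbol, keeping for each gene the probe set (a group of short probes for 1 transcript) with the highest mean over all arrays. Of the 10 listed genes 9 had a probe set that carries only their symbol, out of 11982 genes read in this way, and Mcm7 was not analysed here. Each of the 9 was read by a single probe set.

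Before a cell copies its DNA, the origin recognition complex, of which Orc1 and Orc2 are subunits, marks the sites where copying starts. The loading factor Cdt1, called double parked (dup) in the fly, then helps to place the ring-shaped Mcm2 to Mcm7 helicase on the DNA, which licenses each origin to be used in the coming S phase. At division, aurB is the kinase of the chromosomal passenger complex, which corrects the attachment of chromosomes to the spindle, and CycB3 is a B-type cyclin that acts in mitosis and in female meiosis. In the adult fly, nurse cells and follicle cells of the ovary replicate their DNA repeatedly without dividing, germline cells divide in ovary and testis, few other tissues hold dividing cells, and the mother loads many transcripts of the replication machinery into the egg.

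Expression was measured in whole adult flies of the wild-type strain Oregon R on 80 Affymetrix arrays, in 20 groups of 4. Virgin females and unmated males were held in vials of 30 at 25 °C and ate food with 0.15 M sucrose (the control diet, CD) or with 1 M sucrose (the high-sucrose diet, HSD) for 14 days; the labels give 14 days as their age. The 4 F0 groups were both sexes on either diet. The other 16 were F1 and F2 flies of both sexes and either diet whose F0 male ancestors had eaten CD or HSD (here called CD ancestry and HSD ancestry). The labels give neither the food of the F1 parents of F2 flies nor whether a group's 4 arrays stand for separate vials. The p-values set a difference against the spread between these arrays, which could be technical.

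Values are log2 signals, and changes are log2 differences with their standard error (SE), positive where the value was higher on HSD or with HSD ancestry. A change passed the test, and is said to have risen or fallen, at an adjusted p under 0.05 by limma, adjusted over all genes tested. Arrays were normalized in 10 separate sets of 8, so a test was made only on differences within a set. Signals of different probe sets are not comparable as levels. In RNA from whole flies, fewer cells of a type and less RNA per cell cannot be told apart. The sex labels fit the group means of sex-specific genes: the testis gene Mst87F lay at 11.37 to 12.73 in the 10 male groups and 3.15 to 4.90 in the 10 female groups, and the eggshell gene Vm26Aa at 5.25 to 6.65 in males and 12.63 to 13.87 in females. In 6 arrays of 80, however, transcripts limited to the other sex lay over 0.5 log2 units above the lowest array of their set: replicates 1 and 4 of the CD-fed F1 males of HSD ancestry, replicate 1 of the HSD-fed F1 females of HSD ancestry, and replicates 1, 2 and 4 of the HSD-fed F2 males of HSD ancestry. Tests of the members between groups that rest on them are given with and without them, and correlations over arrays only with them.

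In F0 females, the licensing and mitosis genes rose on the high-sucrose diet. All 9 passed the test, with changes of 0.35 to 0.69 log2 units, or 1.27 to 1.62 times on the linear scale, and in all 9 every HSD array lay above every CD array. Among all 10269 genes tested in these arrays, 23.1% rose, 18.2% fell and 22.9% had non-overlapping groups with HSD higher, so that rises were common, and the median change was 0.02 against 0.48 for the 9 members. Set against the changes of all genes tested, those of the members stood between the percentiles 91.1 (Mcm6) and 98.7 (Orc1).

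Of the origin recognition subunits, Orc1 read 9.75, 9.54, 9.77 and 9.75 in the 4 CD arrays and 10.20, 10.40, 10.44 and 10.53 in the 4 HSD arrays. The lowest HSD array lay well above the highest CD array, and the groups did not overlap. The change of Orc1 was 0.69 (SE 0.08, adjusted p = 0.000147 by limma). Orc2 read 7.87, 7.70, 7.85 and 7.95 on CD and 8.32, 8.45, 8.49 and 8.50 on HSD. It rose by 0.60 (SE 0.06, adjusted p = 9.37e-05 by limma), again without overlap.

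All 4 measured helicase subunits rose. Mcm3 went from 9.71 ± 0.09 to 10.19 ± 0.11 (SD, n = 4 arrays each), a change of 0.47. Mcm2 went from 10.39 ± 0.08 to 10.75 ± 0.06, a change of 0.36. For Mcm5 the means were 10.34 ± 0.09 and 10.70 ± 0.10, and for Mcm6 they were 10.68 ± 0.07 and 11.02 ± 0.09, a change of 0.35 in each. The adjusted p of these 4 lay between 0.000464 and 0.00197 by limma. The loading factor dup rose by 0.48 (SE 0.06), from 10.79 to 11.27. Whether the origin recognition subunits and the helicase subunits differ in response was not tested, since they are read by different probes.

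Both mitotic genes rose. The kinase aurB read 7.88, 7.76, 7.89 and 7.92 on CD and 8.51, 8.46, 8.61 and 8.59 on HSD, so the HSD arrays were all higher. Its change of 0.68 (SE 0.05) had the smallest adjusted p of the 9 members, 1.14e-05 by limma. CycB3 read 11.17, 10.89, 11.12 and 11.16 on CD and 11.66, 11.68, 11.74 and 11.82 on HSD. The change of CycB3 was 0.64 (SE 0.07, adjusted p = 0.000105 by limma), with no overlap.

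**Figure D1:**
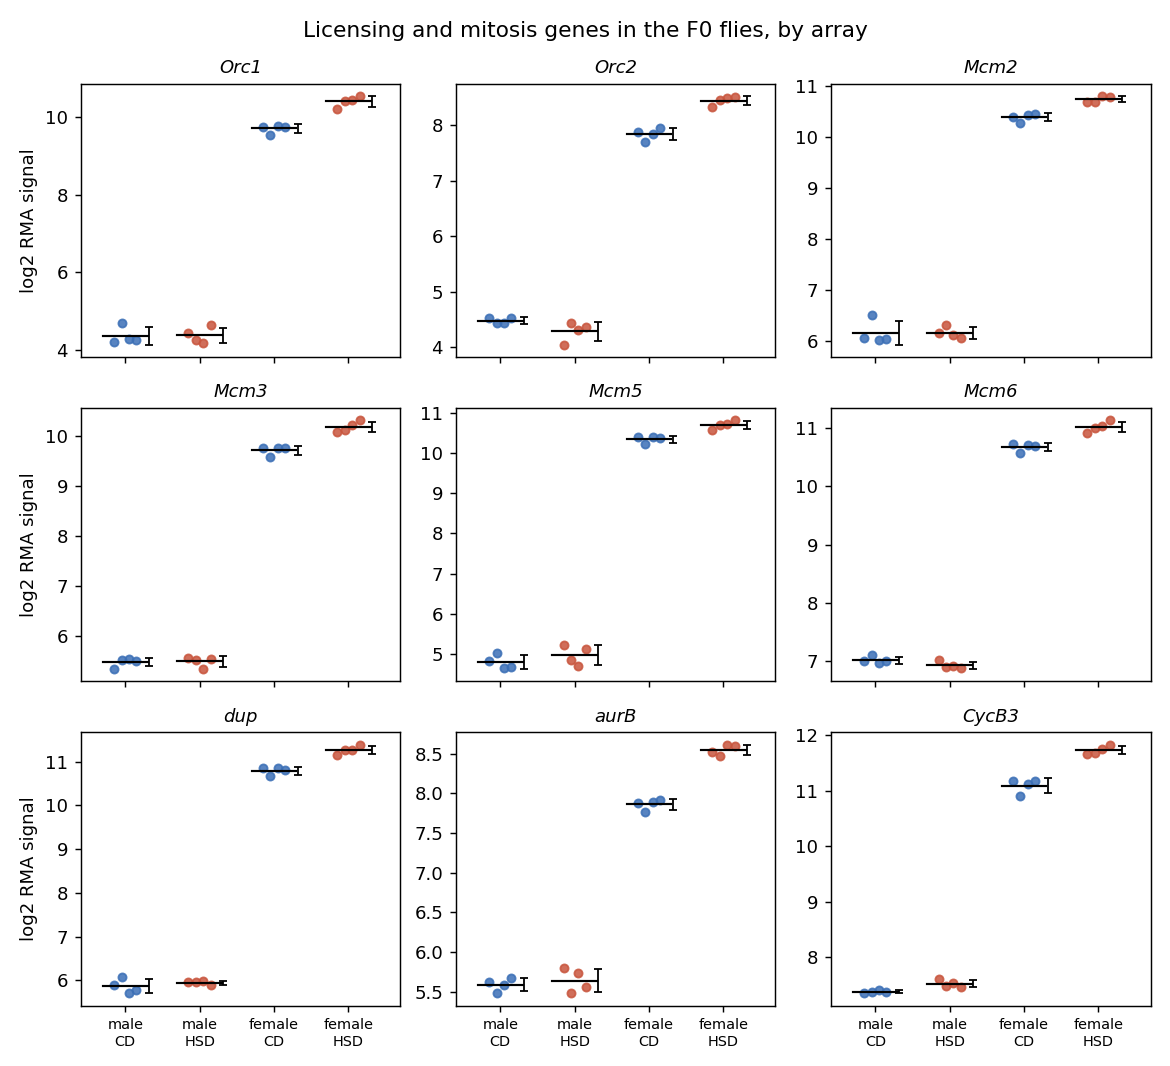
Log2 signal of the 9 genes (1 panel each, own vertical scale) in the F0 flies, by sex and diet. Points are arrays, lines are group means and bars the SD of 4 arrays; in females the 4 HSD arrays lie above the 4 CD arrays in every panel, and males lie lower than females.

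In the F0 females, the members moved together from array to array. Here and below, how many of all genes had the same array highest or lowest was not counted. Replicate 2 of the CD-fed F0 females was the lowest of its group for 9 of 9 members, while replicate 4 of the HSD-fed F0 females was the highest for 7. The mean of the 9 members ran from 9.69 to 9.87 in the CD arrays and from 10.23 to 10.43 in the HSD arrays. Leaving out each array in turn kept all 9 calls.

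Other genes of DNA replication and division, taken from lists that exclude the members, rose in the same F0 females. Of 14 tested licensing and origin firing genes 12 rose and none fell, with a median change of 0.32. They included mus101, the fly TopBP1 (0.55), the origin recognition subunit Orc4 (0.51), the GINS subunit Psf1 (0.51) and the helicase loader Cdc6 (0.47). Of 19 genes of the replication fork and nucleotide supply 18 rose and none fell (median 0.36). Examples are the deoxynucleoside kinase dnk (0.61), the primase subunit Prim2 (0.56), the DNA polymerase alpha subunit PolA2 (0.50) and RnrL, the large subunit of ribonucleotide reductase (0.47).

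Among 29 mitotic genes 25 rose and none fell, with a median change of 0.49. The largest rises that passed were those of the securin pim (0.74), the spindle kinesin Klp61F (0.66), the separase subunit thr (0.65) and Incenp (0.62). Incenp is the scaffold of the passenger complex that holds aurB. Regulators of G1 and S phase were mixed: 8 of 11 rose and 2 fell. CycE, its kinase Cdk2 and the meiotic phosphatase twe rose by 0.60, 0.48 and 0.57, whereas trbl, which slows the cell cycle by promoting the breakdown of the phosphatase string, fell by 0.65.

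Markers of the tissues that could carry these transcripts moved unevenly in the F0 females. The counts stand beside 23.1% of all genes tested that rose there and 18.2% that fell. Among 14 oocyte and maternal transcripts 3 rose and 4 fell, with a median of 0.04; the germline genes aub, orb and osk fell by 0.41, 0.33 and 0.29, and exu, which places bicoid RNA in the egg, rose by 0.40. Of 15 eggshell genes 4 rose and none fell, and all 15 changes were positive, with a median of 0.45. The rises were 1.50 for Vm26Ac and for Vm32E (vitelline membrane), 0.82 for Cp7Fc (chorion) and 0.74 for Fcp3C. Of 12 testis and sperm genes that could be tested in females 2 rose, twe and bam, the latter a germline differentiation factor that is also active in the ovary (0.94). In the 7 tested genes of intestinal stem cells and progenitors, 1 rose, E(spl)mbeta-HLH (0.33), and 2 fell, klu (−0.55) and Sox100B (−0.39). The part of these tissues in the rise of the members was not tested.

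In F0 males, the same diet moved 1 of the 9 members past the test, and that call depended on single arrays. CycB3 read 7.35, 7.38, 7.42 and 7.38 on CD and 7.61, 7.49, 7.54 and 7.46 on HSD. The groups did not overlap, and the change was 0.14 (SE 0.04, adjusted p = 0.0258 by limma). Among the 10976 genes tested in males 30.6% passed, 19.5% rose and 32.5% had non-overlapping groups in either direction. Without replicate 1, 2 or 4 of the CD males the adjusted p of CycB3 was 0.0594, 0.062 and 0.0625, and without replicate 1 of the HSD males 0.0513; a single fit of all 80 arrays gave 0.23.

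The other 8 members did not pass in F0 males. Orc2 read 4.53, 4.43, 4.43 and 4.54 on CD and 4.05, 4.44, 4.31 and 4.36 on HSD, a difference of −0.19 (adjusted p = 0.0898 by limma). Its groups overlapped through replicate 2 of the HSD males, and without that array Orc2 passed at −0.24 (adjusted p = 0.0445). Orc1 read 4.23, 4.71, 4.29 and 4.27 on CD and 4.44, 4.28, 4.18 and 4.64 on HSD, with overlapping groups and a change of 0.01. For aurB the CD males read 5.62, 5.48, 5.58 and 5.68 and the HSD males 5.80, 5.48, 5.73 and 5.56, a change of 0.05. The changes of the remaining 5 ran from −0.09 for Mcm6 to 0.17 for Mcm5, and the widest 95% interval among the 9, that of Orc1, reached from −0.26 to 0.29. Replicate 2 of the CD males held the most female-limited RNA of the F0 male arrays, with a mean of 4.47 for these transcripts against 4.19 to 4.25 in the other 7. It was the highest of its group for 5 members and the lowest for 2, Orc2 and aurB.

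The same lists of related genes were read in F0 males, where 19.5% of all genes tested rose and 30.6% passed in either direction. Of 13 licensing and origin firing genes 3 rose: cutlet (0.28), chif, the regulatory subunit of the kinase that fires origins (0.15), and the kinase Cdc7 itself (0.12). None of 19 fork and nucleotide genes passed in either direction. Of 28 mitotic genes 6 rose, among them the anaphase activator fzy (0.27) and borr, a passenger complex subunit (0.23). Testis and sperm genes, which mark the male germline, rose in 15 of 25 cases, with a median of 0.19 against 0.01 for all genes tested. Some list genes moved as in F0 females. Of 11 G1 and S phase regulators 1 fell, trbl (−0.32), and of 8 intestinal genes 1 fell, klu (−0.35). In neither list did a gene rise. Of 10 oocyte and maternal transcripts 2 rose, swa (0.52) and exu (0.28), and none fell. Of 8 eggshell genes 1 fell, Cp38 (−0.23), and none rose.

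**Figure D2:**
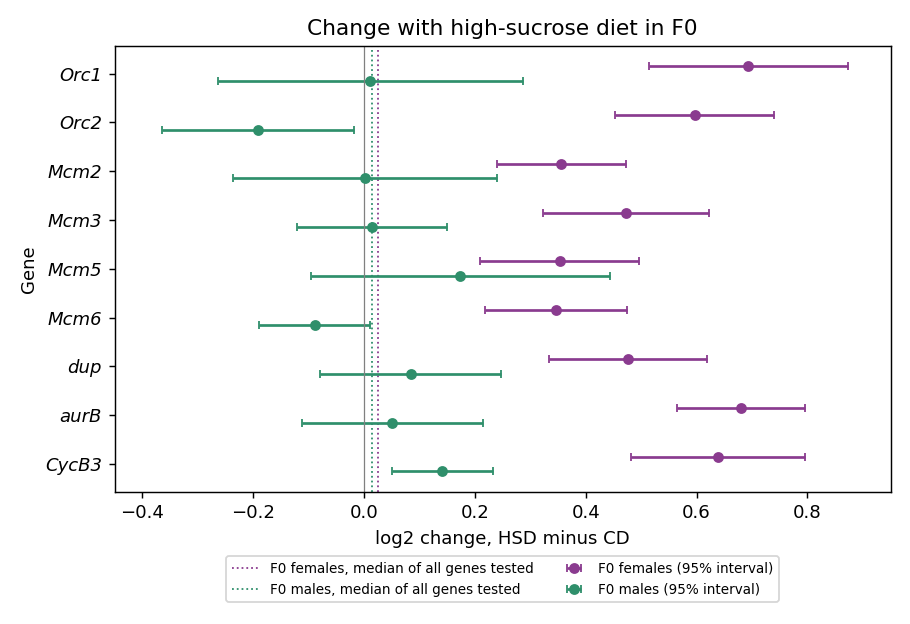
Change with the high-sucrose diet in F0 females and F0 males, as the log2 difference between HSD and CD with its 95% interval, for each of the 9 genes. Dotted lines are the median change of all genes tested; the female intervals all lie above 0, and among the male intervals those of CycB3 and Orc2 exclude 0, on opposite sides.

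Tested directly, the response of females exceeded that of males for 8 of the 9 members, where 14.5% of 11395 genes passed in that direction. The difference between the changes was largest for Orc2 (0.79, SE 0.11, adjusted p = 5.27e-05 by limma), followed by Orc1 (0.68), aurB (0.63) and CycB3 (0.50). Mcm3, Mcm6 and dup differed by 0.46, 0.44 and 0.39. For Mcm5 the difference was 0.18, with a 95% interval from −0.13 to 0.49, and it did not pass (adjusted p = 0.387 by limma).

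The difference for Mcm2 was 0.35 and only just passed (adjusted p = 0.0443 by limma). It was no longer past the threshold in 9 of the 16 fits that left out 1 array. Those arrays were replicates 1, 3 and 4 of the HSD males (adjusted p 0.0641, 0.0732 and 0.0879), replicates 1, 2 and 3 of the CD females (0.0634, 0.0852 and 0.0552) and replicates 2, 3 and 4 of the HSD females (0.0526, 0.0781 and 0.0667). Without replicate 2 of the CD males, whose Mcm2 signal of 6.51 stood above the 6.02 to 6.06 of the other 3 arrays, it was 0.24 (adjusted p = 0.0459).

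Of the related genes, 7 of 14 licensing and firing genes, 14 of 19 fork and nucleotide genes and 21 of 29 mitotic genes had a larger change in females, and none a smaller 1. They included the helicase factors Mcm10 (0.43) and Cdc45 (0.37), the primase subunit Prim1 (0.76) and Klp61F (0.69). The G1 and S phase regulators were mixed: of 11, the change in females was higher for 7 and lower for 2. Of all 11395 genes tested, it was higher for 1652 and lower for 1792.

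As levels, the members were higher in females than in males throughout the series. In each of the 10 pairs of groups that share generation, diet and ancestry, all 9 members were higher in females, and the ranks among all probe sets did not overlap between the sexes. Of all genes, 49.3% and 48.4% had this pattern in F0 flies on CD and HSD, and 49.4%, 48.8%, 47.2% and 47.2% in F1 flies (CD-fed of CD and HSD ancestry, then HSD-fed). In F2 flies the shares in that order were 46.4%, 47.4%, 44.5% and 42.9%. These sets were normalized separately, so no test was made. In CD-fed F0 flies the difference ran from 2.27 for aurB to 5.54 for Mcm5, with a median of 4.23.

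Orc1 ranked between the percentiles 80.6 and 91.7 of all probe sets in the female groups and between 7.4 and 31.2 in the male groups, where 2 sets left it too dim to test. Mcm5 ranked from 86.9 to 94.0 in females and from 35.3 to 41.5 in males. CycB3 ranked from 92.8 to 97.5 in females and from 53.2 to 62.4 in males. In males the members thus lay in the lower or middle part of the signal range.

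**Figure D3:**
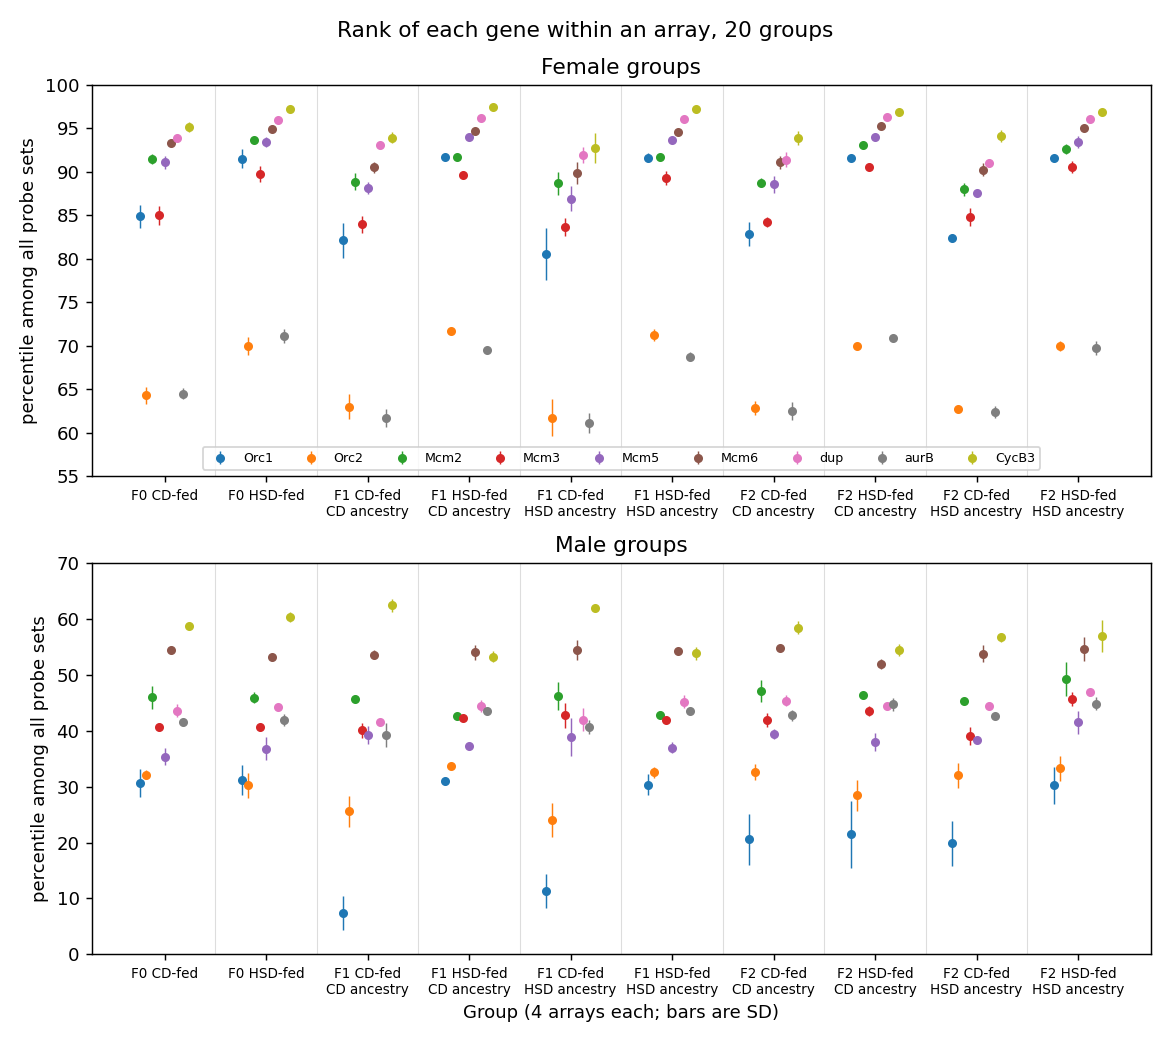
Rank of each gene among all probe sets of its array, as a percentile, in the 10 female groups (top) and 10 male groups (bottom; the vertical scales differ). Points are means of 4 arrays and bars the SD; in females every gene ranks higher in each HSD-fed group than in the CD-fed group of the same generation and ancestry.

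Own diet in F1 and F2 could be described only across separately normalized sets, where diet and batch cannot be told apart, and carries no test. Within females every member was higher on HSD in both generations and both ancestries, by rank without overlap. Of all genes 35.7% and 35.2% had that pattern in F1 females of CD and HSD ancestry, and 31.9% and 31.9% in F2 females. In F1 females the HSD signal exceeded the CD signal by 0.81 to 1.60 log2 units, while the median over all probe sets was itself shifted by 0.21 to 0.22. In F2 females the excess was 0.52 to 0.98, with the median of all probe sets shifted by −0.17 and −0.16.

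Orc1 read 9.63 ± 0.17 in CD-fed and 11.08 ± 0.03 in HSD-fed F1 females of CD ancestry, and 9.50 ± 0.25 and 11.08 ± 0.07 in those of HSD ancestry (SD, n = 4 arrays). Its rank rose from the percentile 82.1 to 91.7 and from 80.6 to 91.6. In F2 females Orc1 read 9.63 ± 0.12 and 10.51 ± 0.03 with CD ancestry, and 9.54 ± 0.05 and 10.49 ± 0.04 with HSD ancestry. For aurB the 4 CD-fed descendant groups of females lay between 7.58 and 7.68 and the 4 HSD-fed groups between 8.51 and 9.13.

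In descendant males the direction depended on the scale. By log2 signal, 8 and 8 of 9 members were higher on HSD in F1 males of CD and HSD ancestry, where the median of all probe sets was shifted by 0.26 and 0.27. In F2 males 0 and 2 were higher, with that median shifted by −0.28 and −0.29. By rank, 6 and 4 of 9 were higher on HSD in F1 males and 3 and 9 in F2 males, in the same order. The 9 of 9 stands in the HSD-fed F2 males of HSD ancestry, of which 3 of 4 arrays held female-limited RNA. With the 1 remaining array the count by rank was 6 of 9, and by log2 signal it stayed at 2. That array, replicate 3, also read higher for female-limited transcripts (4.77) than the HSD-fed F2 males of CD ancestry (4.39 to 4.41). In F1 males of HSD ancestry, without the 2 CD-fed arrays with such RNA, 6 were higher by rank and 8 by log2 signal. In females and between the sexes, the counts of 9 of 9 without overlap were the same with such arrays left out.

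The remaining comparisons ask whether the diet of the F0 males is visible in descendants that ate the same food. No member passed limma's test in any of the 8 sets. The share of all genes that passed was 2.64%, 4.08%, 1.29% and 0.787% in the CD-fed F1, HSD-fed F1, CD-fed F2 and HSD-fed F2 females, and 4.5%, 0.0%, 2.98% and 0.2% in the males in that order. At an unadjusted p under 0.05 there was 1 member of 9 in each female set, where 18.3%, 18.5%, 21.7% and 17.9% of genes met the same limit. In the male sets there were 1, 0, 1 and 7 members, against 24.8%, 11.6%, 21.5% and 7.29% of genes. In each set but the HSD-fed F2 males, the members' share was therefore below that of all genes.

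In the female sets the differences were small and mostly negative. The 36 values lay between −0.20 and 0.03, 32 of them below 0, with a smallest adjusted p of 0.153 by limma. In CD-fed F1 females dup had the lowest unadjusted p, with a difference of −0.18 and non-overlapping groups, a pattern held by 11.7% of genes there. In HSD-fed F1 females it was CycB3, at −0.08 and without overlap, as in 12.5% of genes. In HSD-fed F2 females Mcm5 (−0.09) and aurB (−0.15) had non-overlapping groups, again against 12.5% of genes, and in CD-fed F2 females no member did, against 11.0%.

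The spread between these arrays could be technical, and no allowance was made for reading 9 members at once. Within those limits, the 95% intervals of the single members show what size of ancestry difference the arrays leave room for. In HSD-fed F1 females they reached from −0.15 to 0.09 over the 9 members, and in HSD-fed F2 females from −0.25 to 0.10. They were wider in CD-fed females, from −0.45 to 0.16 in F1 and from −0.30 to 0.22 in F2. In CD-fed F2 females Mcm5 did not pass with all arrays (−0.15, adjusted p = 0.221 by limma). It passed at −0.22 (adjusted p = 0.0498) when replicate 2 of CD ancestry, the lowest of its group for Mcm5, was left out. Without replicate 1 of the HSD-fed F1 females of HSD ancestry, which held male-limited RNA, the differences ran from −0.08 to 0.02, 5 of 9 were positive where 1 had been, and none passed (smallest adjusted p = 0.254 by limma).

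Averaged over both own diets, no member passed in F2 females, where 8.58% of all genes did. At an unadjusted p under 0.05 there were 4 members, against 28.5% of genes. Differences ran from −0.12 (Mcm5) to 0.02, with a smallest adjusted p of 0.0891 by limma. Without the same array of the CD-fed F2 females, Mcm5 and aurB passed, both at −0.15 (adjusted p = 0.0283 and 0.0375). Of all genes tested, 6.62% fell in this average, and the median difference was −0.03. The related lists had few calls, all lower: 1 of 14 licensing and firing genes (cutlet, −0.14), 3 of 19 fork genes (DNAlig1, PolE1 and Prim2, −0.13 to −0.14), 1 of 11 G1 and S phase regulators (Cdk2, −0.15) and 2 of 29 mitotic genes (Bub3, −0.18, and cort, −0.12). The medians of these lists lay between −0.06 and −0.08. Of 15 eggshell genes 14 fell, with a median of −0.72. In F1 females, no member passed in the average, against 4.76% of genes, and 2 had an unadjusted p under 0.05, against 20.4% of genes. The own-diet difference of the ancestry change also passed for none of the 9 in F1 or F2 females, where 2.85% and 0.168% of genes did. There 1 and 0 members had an unadjusted p under 0.05, against 15.7% and 10.6% of genes. Without the F1 female array that held male-limited RNA, the median over the members stood at −0.06 for the F1 average, from −0.07, and at 0.10 for the own-diet difference, from 0.07. None passed (smallest adjusted p = 0.269 and 0.253 by limma).

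**Figure D4:**
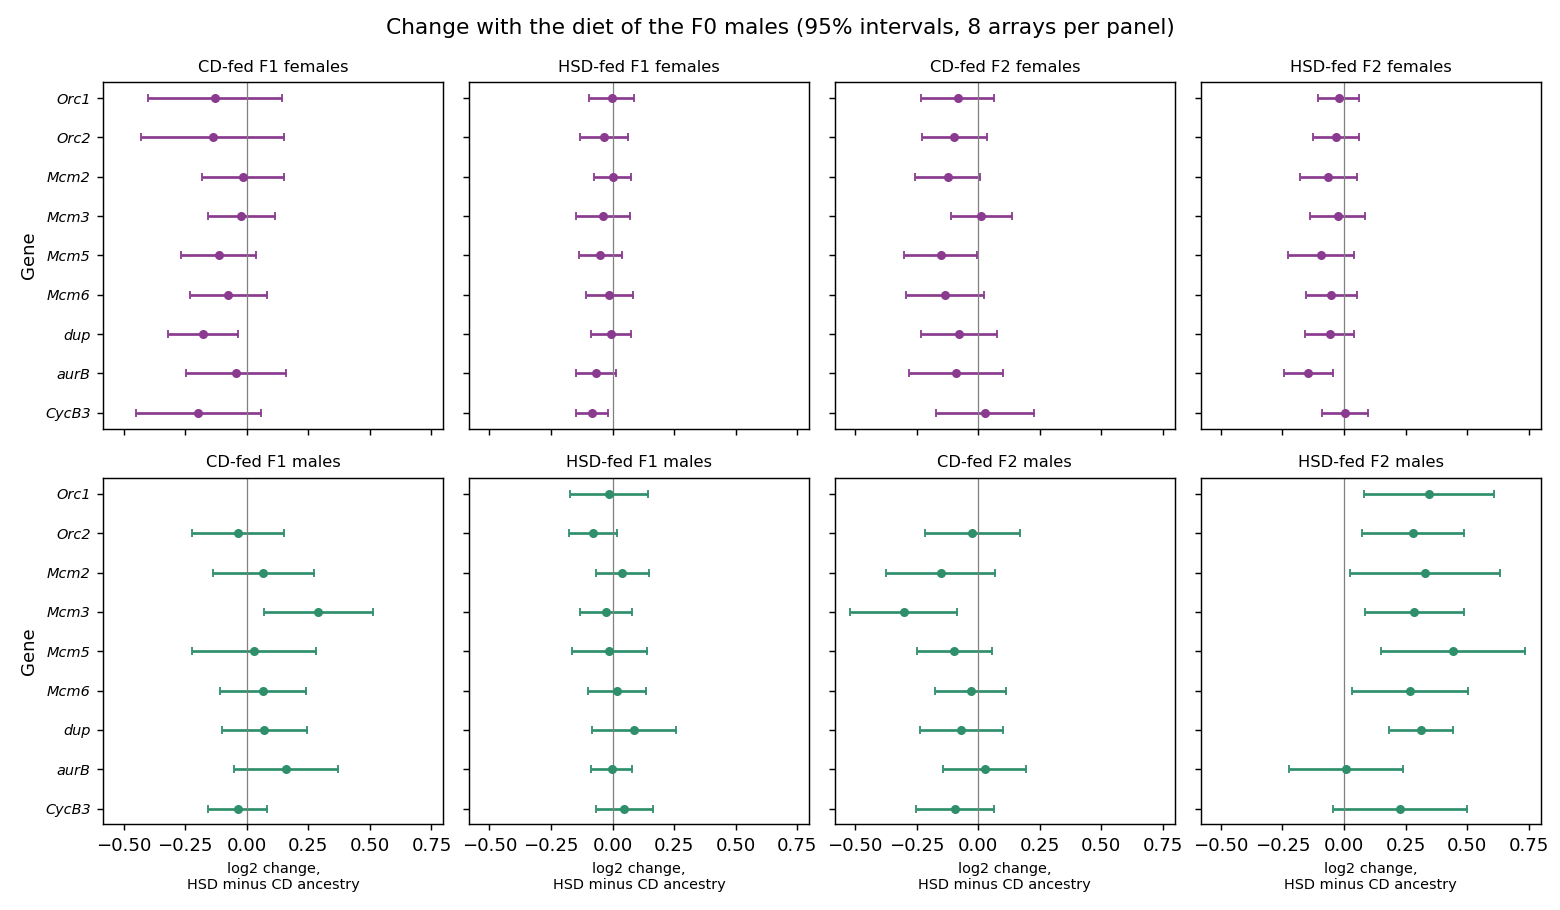
Difference between HSD and CD ancestry for each gene in the 8 descendant sets, in log2 units with 95% intervals, females above and males below. Orc1 has no value in 2 male sets, where it was too dim; the female values lie close to 0, and those of the HSD-fed F2 males lie mostly above 0 with none past the adjusted threshold.

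In the male sets 34 tests could be made, since Orc1 was too dim in CD-fed F1 and F2 males, and the differences ran from −0.30 to 0.44. Mcm3 differed by 0.29 in CD-fed F1 males (adjusted p = 0.103 by limma) and by −0.30 in CD-fed F2 males (adjusted p = 0.11). In HSD-fed F1 males the values lay between −0.08 and 0.09.

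In HSD-fed F2 males, all 9 differences were positive, with a median of 0.29 against 0.01 for all genes tested, and 7 had an unadjusted p under 0.05, as 7.29% of genes did. Orc1 was among these 7, but it was bright enough to test only with HSD ancestry (percentile 30.2). With CD ancestry it was too dim (percentile 21.5), so its difference rests on a dim group. The dup signal, shown for its smallest p after the values were seen, was 5.65, 5.75, 5.68 and 5.69 with CD ancestry and 6.01, 6.12, 5.94 and 5.95 with HSD ancestry. The groups did not overlap, as also for Mcm2 and Mcm3, a pattern of 6.2% of genes in this set. The difference of 0.31 for dup did not pass (SE 0.06, adjusted p = 0.0956 by limma). Mcm5 had the largest difference, 0.44.

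Female-limited transcripts moved with these values. Their mean over 76 genes was 4.39 to 4.41 in the 4 arrays of CD ancestry and 4.99, 5.29, 4.77 and 5.10 in the 4 of HSD ancestry. Replicate 2 of the latter had the highest such mean and was the highest of its group for 9 of 9 members, with Mcm2 at 6.75 against 6.01 to 6.18 in the other 3. The list genes that passed in this set were CycB, a mitotic cyclin and maternal transcript (2.42), the maternal kinase activator gnu (0.93), the oocyte gene osk (2.43) and the eggshell genes Vm26Aa (1.21) and Vm34Ca (0.95). Without replicates 1, 2 and 4, 1 array of HSD ancestry was left, the third with its mean of 4.77. That mean also lay above those of the arrays of CD ancestry. The differences of the members then ran from −0.17 to 0.27, with a median of 0.16.

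The own-diet difference of the ancestry change in F2 males passed for none of the 9 members, where 0.921% of genes did. At an unadjusted p under 0.05 there were 8 members, against 13.4% of genes. Orc1 was among these 8, but only the HSD-fed males of HSD ancestry were not too dim for it. Its percentile in the other groups was 19.9 to 21.5. The own-diet difference was 0.59 for Mcm3 (adjusted p = 0.0615 by limma). It passed for Mcm3 without replicate 3 of the CD-fed males of CD ancestry (0.66), for dup without replicate 3 of the CD-fed males of HSD ancestry (0.44), and for Mcm5 without replicate 3 of the HSD-fed males of HSD ancestry (0.65). With the 3 arrays flagged for female-limited RNA left out, the median over the members went from 0.38 to 0.21. The HSD-fed F2 males of HSD ancestry then kept only replicate 3, whose female-limited mean was above those of CD ancestry. The average over own diets passed for none in F1 or F2 males, against 1.51% and 0.0626% of genes, and 0 members had an unadjusted p under 0.05 in either, against 19.6% and 17.4% of genes. Without the arrays that hold female-limited RNA, the median over the members went from 0.05 to 0.02 in the F1 average and from 0.12 to −0.03 in the F2 average, and none passed (smallest adjusted p = 0.400 and 0.308 by limma). The own-diet difference in F1 males also passed for none of the 9, against 3.76% of genes, with 2 members at an unadjusted p under 0.05, against 20.1% of genes. Orc1 was among these 2, but it was too dim in both CD-fed groups (percentiles 7.4 and 11.3). The median of this own-diet difference went from −0.04 to 0.08 without the arrays that hold female-limited RNA (smallest adjusted p = 0.383 by limma).

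In CD-fed F1 males, the mean of female-limited transcripts was 5.76 and 5.68 in replicates 1 and 4 of HSD ancestry and 4.90 to 5.03 in the other 6 arrays. Replicate 1 was the highest of its group for 7 members, but replicate 4 was the highest for 0 and the lowest for 1. The mean of the 9 members was 6.20 and 6.08 in replicates 1 and 4, and 5.86 to 6.02 in the other 6 arrays. With both left out, the median difference of the members went from 0.07 to −0.05 and none passed (smallest adjusted p = 0.420 by limma).

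**Figure D5:**
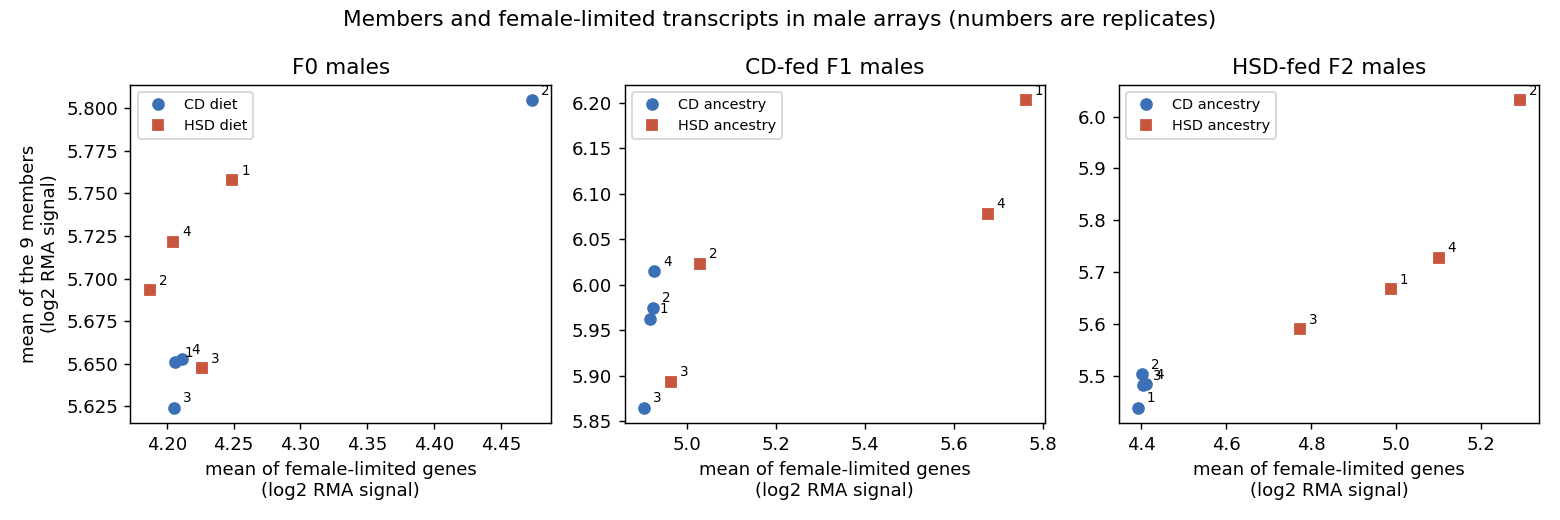
Mean of the 9 genes against the mean of female-limited transcripts, per array, in 3 sets of males (log2 signal, numbers are replicates). In CD-fed F1 and HSD-fed F2 males the arrays with the most female-limited signal, of HSD ancestry, also have the highest mean of the 9 genes, as does replicate 2 of the CD males in F0.

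Within the sets, the members varied together over the female arrays. After the mean of each normalized set was subtracted, the correlation of a member with the mean of the other 8 over the 40 female arrays ran from 0.88 for Mcm3 to 0.98 for Orc1. Over the 40 male arrays it ran from 0.15 for aurB to 0.78 for Mcm6. These are descriptions: arrays of a set share their normalization, and the F0 diet change is part of the female figure. The arrays with opposite-sex transcripts were kept in both figures.

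The genes outside the members with the most similar pattern over the female arrays were Map60 (r = 0.97 with the mean of the members), CG4570, msb1l, tum and thr, down to 0.96. Over the male arrays they were PCNA (r = 0.87), Cdc6, Marf1, gwl and otu, down to 0.83. The male arrays with female-limited RNA were kept here, and their part in these correlations was not tested.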

How the data were processed

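The deposited table holds RMA values on the log2 scale, 1 per probe set and array. The authors made them with RMA and used limma, per the submitters' processing notes, which state no versions. Values ran from 2.33 to 14.76. Of 18952 probe sets, 183 controls, 402 with several gene symbols in the platform annotation and 4720 with none were left out, and 11982 genes remained. Arrays carry no counts, and their number limits the precision. The median range of the sorted values was 0.04 to 0.11 within each of 10 sets of 8 arrays and 1.15 over the 80 together, so sets were taken as normalized separately. Sets follow the batch labels, and each sex within the F0 batch.

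Each comparison was fitted on its own arrays with limma 3.58.1 in R 4.3.3 (lmFit and eBayes, two-sided). Genes too dim in every group (mean under the 25th percentile of the probe sets) were not tested, and p-values were adjusted by Benjamini-Hochberg over all genes tested. Averages over own diets had own diet, which is also the batch, as a term. Female-limited and male-limited genes (76 and 652) were those 5 log2 units apart between CD-fed F0 females and males, members left out.

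The members and the 8 gene lists were chosen with earlier results of these data known. Per list and comparison, up to 4 genes past the threshold with the largest change were named, and per-array values were printed for up to 4 members past the threshold. The 5 genes most like the members were those with the highest Pearson correlation with their mean after subtraction of set means. Same-numbered arrays were not treated as pairs: their deviations correlated at −0.32 to 0.64, and in no comparison were all pairs over 0.1. The labels do not say whether such arrays share a vial or day.

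Alternatives were a replicate block, 1 fit of all 80 arrays, no dim filter, a second quantile normalization, the mean of a gene's probe sets, a trended robust prior, no batch term and leaving out each array. Leaving out arrays with opposite-sex transcripts was chosen after seeing the data. The main fit of each comparison, but none of these alternatives, was also tested on simulated data. Python 3.11.15 with pandas 2.3.3, numpy 2.4.6, scipy 1.17.1 and matplotlib 3.10.9 was used for annotation and figures. Coordinates and sequences of the genes were not used here.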

Additional observations from a re-analysis of the deposited data

Results flagged for a closer look

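Of 180 combinations of a member and a group of 4 arrays, 10 held an array far from the other 3, by Dixon's ratio of gap to range (95% critical value). Chance alone flags about 5% of groups. Replicate 2 of the CD-fed F0 males stood high for Orc1 (4.71, others 4.23 to 4.29) and Mcm2 (6.51, others 6.02 to 6.06). Replicate 2 of the CD-fed F0 females stood low for Orc1 (9.54, others 9.75 to 9.77) and Mcm3 (9.57, others 9.76 to 9.77). Mcm3 was also low in replicate 1 of the CD-fed F0 males (5.35, others 5.51 to 5.54) and in replicate 3 of the HSD-fed F0 males (5.34, others 5.53 to 5.57).

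In F2, Mcm5 was low in replicate 2 of the CD-fed females of CD ancestry (9.99, others 10.23 to 10.26) and in replicate 2 of the HSD-fed females of HSD ancestry (10.59, others 10.83 to 10.86), and Orc2 was low in replicate 1 of the CD-fed females of HSD ancestry (7.60, others 7.64). In F1, dup was low in replicate 4 of the HSD-fed females of CD ancestry (11.89, others 11.95).

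The change with diet in F0 differed between the sexes, by limma's test of the difference itself, for 8 members. It was larger in females by 0.68 for Orc1, 0.79 for Orc2, 0.35 for Mcm2, 0.46 for Mcm3, 0.44 for Mcm6, 0.39 for dup, 0.63 for aurB and 0.50 for CycB3. The adjusted p ran from 5.27e-05 for Orc2 to 0.0443 for Mcm2.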

How the results depend on the processing

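In F0 females the count stayed at 9 of 9 under every alternative run, with the largest adjusted p at 0.00994 (Mcm5, limma). The sex difference called 7 to 8 members, 7 with the replicate block, where Mcm2 was not called (0.35, adjusted p = 0.0565). In F0 males the count of 1 went to 0 with the replicate block (CycB3 0.14, adjusted p = 0.0641), to 0 in a fit of all 80 arrays, and to between 0 and 2 with each array left out. The replicate block changed no other count. The fit of all 80 arrays, which shares a spread across sets, called 1 member in CD-fed F1 males (Mcm3, 0.29), 1 in CD-fed F2 males (Mcm3, −0.30), 5 in HSD-fed F2 males (Mcm2, Mcm3, Mcm5, Mcm6 and dup) and 4 for the own-diet difference in F2 males, where a further quantile normalization called 2 (Mcm3 and dup). The trended robust prior called 1 in HSD-fed F1 females (CycB3, −0.08) and 1 in the F2 female average (Mcm5, −0.12). With each array left out, the counts ran from 0 to 1 in CD-fed F2 females, 0 to 2 in the F2 female average and 0 to 1 for the own-diet difference in F2 males. The causes were not tested. No direction was reversed for a called member, and no dim filter, the mean of all probe sets, no batch term and leaving out arrays with opposite-sex transcripts moved no count. No detection call was used, so how far the low male signals stood above background was not measured.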

Other observations

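In HSD-fed F1 females of HSD ancestry, replicate 2 was the highest of its group for 9 of 9 members, and replicate 1, which held male-limited transcripts, the lowest for 6. In CD-fed F1 females of CD ancestry replicate 3 was the highest for 9 of 9. Array by array, the mean of the 9 members had an SD of 0.01 to 0.06 in the 4 HSD-fed descendant groups of females and of 0.04 to 0.16 in the 4 CD-fed groups, and no test was made of this difference.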
